A study of Arabidopsis thaliana with 12 samples.

Results

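The 18S and 5.8S ribosomal RNA (rRNA) genes of Arabidopsis thaliana were followed in CLIP-seq libraries of the nucleolar methyltransferase fibrillarin. The members were 4 annotated genes, 2 copies of each rRNA: 18S as AT2G01010 (chromosome 2, 3706 to 5513, plus strand) and AT3G41768 (chromosome 3, 14197677 to 14199484, plus strand), and 5.8S as AT2G01020 (chromosome 2, 5782 to 5945, plus strand) and AT3G41979 (chromosome 3, 14199753 to 14199916, plus strand), all on TAIR10.1 coordinates. They were chosen by locus. They were 4 of the 35566 genes with a peak, and they held 1849 of the 1032992 peaks kept in the 12 peak lists. The study recovered RNA bound to a tagged fibrillarin in 14-day-old Col-0 seedlings that had been crosslinked with UV, with 4 libraries each of plants expressing GFP-FIB1, of plants expressing CFP-FIB2, and of plants expressing GFP, the negative control. All groups were grown alike, on Murashige and Skoog plates with sucrose and agar at 23 °C in long days, and RNA was released with proteinase K before small-RNA library preparation. The labels do not say which promoter drives the tagged proteins, whether a line is 1 transformant, how many seedlings went into a library, or whether the 4 replicates came from separate cultures, so the spread that enters a p-value may be technical. The leaf markers RBCS1A, RBCS3B, RCA, LHCB1.3 and CAB3 had a peak in all 12 libraries and LHCB2.1 in 11, and the root markers TIP2-3 and PIP2-2 had one in 12 and 8.

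18S rRNA is the RNA of the small ribosomal subunit, and 5.8S rRNA pairs with 25S rRNA in the large one; they are cut from a single precursor in the nucleolus. Fibrillarin adds 2'-O-methyl groups to that precursor as part of box C/D small nucleolar ribonucleoproteins, in which a snoRNA pairs with the rRNA beside its D or D' box (CTGA in DNA letters) and marks the base paired with the fifth snoRNA base upstream of the box. FIB1 and FIB2 are the Arabidopsis paralogs of fibrillarin. The comparisons ask whether peaks within the 18S and 5.8S genes were more frequent, or lay elsewhere, with a tagged fibrillarin than with GFP alone. Such peaks cannot tell the mature rRNA from the same stretch of the precursor.

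The local maxima of the read profile, averaged over the 12 libraries, are shown first because the results on position turn on them. They are read from the chromosome 3 copies on the plus strand of TAIR10.1, RefSeq, 41 bases each, 5′ to 3′, with the positions that carried the maximum in capitals; positions are counted from 1 at the first base of the gene.
18S, positions 538 to 578, chr3:14198214-14198254: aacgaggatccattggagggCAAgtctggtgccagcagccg
18S, positions 652 to 692, chr3:14198328-14198368: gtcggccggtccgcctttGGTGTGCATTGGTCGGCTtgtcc
18S, positions 1096 to 1136, chr3:14198772-14198812: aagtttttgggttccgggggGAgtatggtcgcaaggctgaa
18S, positions 215 to 255, chr3:14197891-14197931: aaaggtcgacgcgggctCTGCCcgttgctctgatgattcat
5.8S, positions 70 to 110, chr3:14199822-14199862: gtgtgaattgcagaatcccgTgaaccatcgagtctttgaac

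Depth and the libraries bear on every value. The libraries held 2811379 to 12438185 reads in kept peaks, taking the number in each peak's name as its reads, and of these 432877 to 2340463 lay in 18S and 67759 to 556691 in 5.8S. The libraries also fell into 3 batches that the labels do not name and that were seen in the peak lists themselves. Batch A was GFP-FIB1 replicate 1, CFP-FIB2 replicate 1 and GFP replicates 1 and 2; batch B was GFP-FIB1 replicate 2, CFP-FIB2 replicate 2 and GFP replicate 3; batch C was the other 5 libraries. Over 4488 protein-coding genes, levels correlated at 0.464 to 0.866 within a batch and at 0.160 to 0.298 between batch A and the others. Batches B and C correlated with each other at 0.506 to 0.678, inside the within-batch range, so this measure sets apart batch A alone. Each batch holds libraries of all 3 groups, so within-batch values stand beside the pooled ones. As the batches come from these same data, p-values within batches or with a batch term may be too small.

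No test showed a different share of 18S or 5.8S in the fibrillarin libraries than in GFP libraries. The 18S share of all reads in peaks was 15.6, 12.1, 11.6 and 7.76% in GFP-FIB1 replicates 1 to 4, 16.7, 11.2, 10.1 and 18.8% in CFP-FIB2 replicates 1 to 4, and 21.9, 14.99, 16.4 and 10.5% in GFP replicates 1 to 4. The highest share was in a GFP library and the lowest in a GFP-FIB1 library, and all groups overlapped. The share averaged 11.8% ± 3.21 in GFP-FIB1 libraries and 15.97% ± 4.71 in GFP libraries (SD, n = 4 each). The difference was -4.20 percentage points (2-sided exact permutation p = 0.257, adjusted p = 0.943 over the 6 tests of both rRNAs). Within batches that difference was -2.67 (exact p = 0.389). CFP-FIB2 libraries averaged 14.2% ± 4.19 (SD, n = 4), -1.76 points from GFP (exact p = 0.600, adjusted p = 0.943), and GFP-FIB1 was -2.44 points from CFP-FIB2 (exact p = 0.400, adjusted p = 0.943). Such shares, taken from whole seedlings, cannot tell fewer cells of a type from less RNA per cell.

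5.8S, the shorter RNA, was read more densely than 18S. Its share of reads in peaks was 3.21, 3.87, 4.60 and 2.72% in GFP-FIB1 replicates 1 to 4, 3.81, 3.42, 3.12 and 3.43% in CFP-FIB2 replicates 1 to 4, and 2.41, 5.04, 4.81 and 1.83% in GFP replicates 1 to 4. Both the highest and the lowest of these were GFP libraries. Means were 3.602% ± 0.818 in GFP-FIB1, 3.45% ± 0.281 in CFP-FIB2 and 3.52% ± 1.64 in GFP libraries (SD, n = 4 each). Exact permutation p was 0.943 between GFP-FIB1 and GFP, 0.914 between CFP-FIB2 and GFP, and 0.714 between GFP-FIB1 and CFP-FIB2 (adjusted p = 0.943 in each). Per nucleotide of gene, the read level of 5.8S exceeded that of 18S in all 12 libraries, by 1.21 times in GFP replicate 1 to 4.37 times in GFP-FIB1 replicate 3. Of the reads in the 2 rRNAs together, 5.8S took 23.9% ± 4.86 in GFP-FIB1 libraries, 20.2% ± 3.95 in CFP-FIB2 libraries and 18.1% ± 7.04 in GFP libraries (SD, n = 4 each). No comparison passed, with exact permutation p = 0.200 between GFP-FIB1 and GFP, 0.657 between CFP-FIB2 and GFP and 0.257 between GFP-FIB1 and CFP-FIB2 (adjusted p = 0.386, 0.657 and 0.386).

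**Figure D1:**
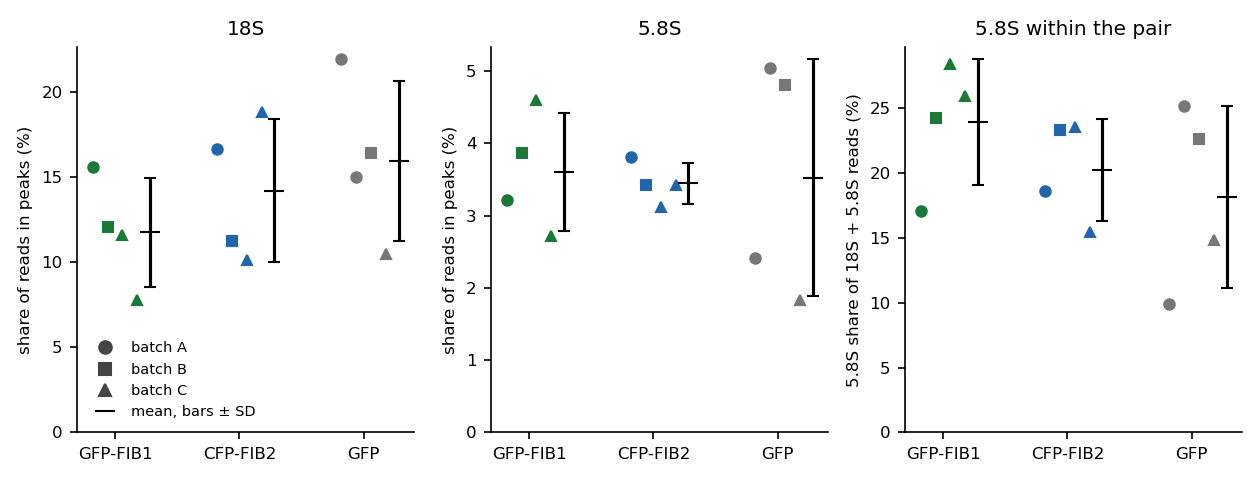
Share of reads in peaks that lay in 18S (left) and 5.8S (middle), and the 5.8S share of the reads in both (right), in percent, for each of the 12 libraries by group, with marker shape giving the batch and bars the mean ± SD. All groups overlap; 18S runs from 7.76 to 21.9% and 5.8S from 1.83 to 5.04%.

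The reading of 5.8S depends on how peaks are assigned to genes. A long noncoding RNA gene, AT3G06355 (chromosome 3, 14199575 to 14200076, plus strand), spans the 5.8S gene AT3G41979, and 94.5% of the 5.8S reads lay in peaks that the authors named for it. Of 175 peaks named for AT3G06355, 173 lay in AT3G41979, while 1 kept peak there carried the name of AT3G41979. Peaks were therefore assigned by position on the plus strand. The bounds bear on it too: with peaks lying wholly inside the gene, the 5.8S share in GFP-FIB1 libraries was 1.06 points above GFP (exact permutation p = 0.314), and 5.8S took 10.7 points more of the reads of both rRNAs in GFP-FIB1 than in GFP (exact p = 0.0857) and 7.05 more in CFP-FIB2 than in GFP (exact p = 0.200). None of these passed. Only 2 kept peaks crossed the bounds of a member. The 5.8S share in GFP-FIB1 against CFP-FIB2 stayed at 0.156 points, so the shifts rest on those 2 peaks, in GFP libraries. No minus-strand peak lay in any of the 4 genes, in any library.

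How much of each RNA was covered by peaks did not separate the groups. Peaks covered 661, 966, 758 and 820 of the 1808 nt of 18S in GFP-FIB1 replicates 1 to 4, 860, 863, 731 and 567 nt in CFP-FIB2 replicates 1 to 4, and 763, 743, 895 and 709 nt in GFP replicates 1 to 4. Exact permutation p was 0.771 between GFP-FIB1 and GFP, 0.714 between CFP-FIB2 and GFP, and 0.686 between GFP-FIB1 and CFP-FIB2. CFP-FIB2 replicate 4 had the most 18S reads and the shortest covered length. Of the 164 nt of 5.8S, peaks covered 88 to 159 nt in GFP-FIB1 libraries, 101 to 146 nt in CFP-FIB2 libraries and 94 to 160 nt in GFP libraries.

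In the fit across all genes, limma on log2(RPM + 1), neither rRNA was called, and the guide snoRNAs of the same rRNAs had far larger fold changes. RPM is reads per 1000000 reads of the genes tested, after scaling, so its total leaves out peaks outside genes and differs from that of the shares. In CFP-FIB2 replicate 4 RPM values are high beside shares of reads in peaks, with 18S at 667069 RPM and 18.8%. The RPM means and fold changes of CFP-FIB2 below include that library. The log2 fold change of 18S was -0.43 ± 0.64 (SE; 95% interval -1.76 to 0.90) between GFP-FIB1 and GFP. It was 0.30 ± 0.64 (interval -1.04 to 1.63) between CFP-FIB2 and GFP, and -0.73 ± 0.64 (interval -2.06 to 0.61) between GFP-FIB1 and CFP-FIB2. The log2 fold change of 5.8S was 0.14 ± 0.72 (interval -1.37 to 1.65), 0.56 ± 0.72 (interval -0.95 to 2.07) and -0.42 ± 0.72 (interval -1.93 to 1.09) in the same order. Adjusted p was 1.00 for all 6. The direction of 18S in CFP-FIB2 against GFP turned without CFP-FIB2 replicate 4 (-0.27) and with scaling by total reads (-0.19). The background was as low: 0% of 19537 genes passed in either direction in any comparison, with 542, 466 and 216 genes at an unadjusted p under 0.05. These were 1.79% of genes as higher and 0.988% as lower in GFP-FIB1 against GFP, 1.91% and 0.471% in CFP-FIB2 against GFP, and 0.445% and 0.66% in GFP-FIB1 against CFP-FIB2. With the batches as a term, neither rRNA passed (adjusted p from 0.941 to 0.993), while 0.543% of genes passed as higher and 0.0717% as lower in GFP-FIB1 against GFP, and 0.496% and 0.00512% in CFP-FIB2 against GFP. The groups overlapped for both rRNAs in all 3 comparisons; without overlap, 0.88% of genes were higher and 0.906% lower in GFP-FIB1 against GFP, 1.26% higher and 0.548% lower in CFP-FIB2 against GFP, and 0.445% higher and 0.558% lower in GFP-FIB1 against CFP-FIB2.

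The guides were the snoRNA genes whose sequence pairs with 18S or 5.8S beside a CTGA over 10 or more Watson-Crick bases, 41 of the 287 annotated snoRNA genes. In GFP-FIB1 against GFP, 30 of the 32 tested guides for 18S had a positive log2 fold change, with a median of 4.31 against 0.08 over all genes. Of these, 28 had an unadjusted p under 0.05, 0 passed the adjusted threshold, and with the batch term 21 passed, all higher. The batches were seen in these same data, so calls with that term may be too many. In CFP-FIB2 against GFP, 30 of 32 were positive with a median of 3.98 against 0.12 over all genes. Of these, 28 had an unadjusted p under 0.05, 0 passed, and with the batch term 19 passed, all higher. Of the 5 tested guides for 5.8S, 5 were positive in each of these comparisons, with medians of 4.10 and 3.67, and with the batch term 3 and 2 passed. Between GFP-FIB1 and CFP-FIB2 no guide passed in either fit, and the medians were 0.21 for 18S guides and 0.27 for 5.8S guides against -0.05 over all genes. The 2 guides for 18S without a positive value were AtsnoR79a (AT1G06467, -0.35) and AT3G58196 (-0.89) in GFP-FIB1 against GFP, and AtsnoR79a (-2.05) and AtsnoR23-2 (AT4G06250, -0.15) in CFP-FIB2 against GFP. A guide is chosen here by sequence alone, and whether each gene is a box C/D snoRNA was not checked. The comparisons against GFP share their 4 GFP libraries. The other 246 snoRNA genes, of which 153 were tested, had medians of 3.31 in GFP-FIB1 against GFP and 3.38 in CFP-FIB2 against GFP. Of these 153, in the same order, 90 and 87 had an unadjusted p under 0.05, all higher. With the batch term 55 and 54 of them passed, all higher, so such calls were not particular to the guides. Over all genes, 0.543% and 0.496% passed as higher with that term. The guides and targets of the sites described below are shown because the text names them, except that AT1G06547 was not among the genes tested; they are read from RefSeq TAIR10.1 5′ to 3′, with the predicted rRNA base and the CTGA of the guide in capitals.
18S target around position 418: acatCcaaggaagg
AT4G39363, guide for 418: ccttccttggatgtCTGA
18S target around position 440: cgcAaattaccca
AT2G35382, guide for 440: tgggtaatttgcgtCTGA
18S target of AT4G02555: aggAtccattgg
AT4G02555, its guide: ccaatggatccttCTGA
18S target around position 1235: ggaTtgacagactg
AT1G06547, guide for 1235: cagtctgtcaatccaCTGA
18S target around position 1645: accgCccgtc
AT1G19376, guide for 1645: gacgggcggtCTGA
5.8S target around position 47: aagAacgtagcgaa
AT5G06565, guide for 47: ttcgctacgttctttCTGA
5.8S target around position 155: ctgGgtgtcacaa
AT1G06237, guide for 155: ttgtgacacccagtCTGA

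The single guides named next had the smallest limma p of their list in a comparison, so their values are not typical of all guides. Of the 37 tested guides, 9 in GFP-FIB1 and 16 in CFP-FIB2 lay above GFP without overlap, against 0.88% and 1.26% of all genes. AT2G35382 (chromosome 2, 14894380 to 14894455, minus strand), predicted for position 440 of 18S, had 178, 104, 72.6 and 115 RPM in GFP-FIB1 replicates 1 to 4, 99.9, 74.1, 55.5 and 56.7 RPM in CFP-FIB2 replicates 1 to 4, and 0, 11.2, 0 and 8.23 RPM in GFP replicates 1 to 4. Every fibrillarin library was above every GFP library, at a log2 fold change over GFP of 5.11 ± 0.99 in GFP-FIB1 and 4.44 ± 0.99 in CFP-FIB2 (SE; limma adjusted p = 0.239 and 0.449). AT4G39363 (chromosome 4, 18305256 to 18305375, plus strand), 1 of 4 neighbouring guides predicted for position 418, had 182, 547, 429 and 574 RPM in GFP-FIB1 replicates 1 to 4, 154, 672, 275 and 380 RPM in CFP-FIB2 replicates 1 to 4, and 2.77, 16.2, 7.89 and 34.1 RPM in GFP replicates 1 to 4. The groups did not overlap here either, at 5.06 ± 1.05 in GFP-FIB1 and 4.76 ± 1.05 in CFP-FIB2 (SE, log2 fold change over GFP; limma adjusted p = 0.301 and 0.449). AT1G19376 (chromosome 1, 6697438 to 6697524, plus strand), predicted for position 1645, averaged 91.2 ± 47.3 RPM in GFP-FIB1 libraries and 3.72 ± 1.296 RPM in GFP libraries (SD, n = 4 each). U27-2 (AT4G06015), predicted for position 28, averaged 16.7 ± 9.93 RPM in CFP-FIB2 libraries and 0.604 ± 0.731 RPM in GFP libraries (SD, n = 4 each). For 5.8S, AtsnoR4a (AT1G06237) at position 155 reached 83.7, 4719, 4780 and 6601 RPM in GFP-FIB1 replicates 1 to 4 and 339, 4591, 1613 and 2353 RPM in CFP-FIB2 replicates 1 to 4, against 0, 10.4, 34.0 and 323 RPM in GFP replicates 1 to 4. The batch A libraries were the lowest of each group, and GFP replicate 4 lay above GFP-FIB1 replicate 1. At39BYb (AT2G08755), predicted for position 79 of 5.8S, averaged 25.1 ± 20.1 RPM in GFP-FIB1 libraries and 14.7 ± 9.56 RPM in CFP-FIB2 libraries (SD, n = 4 each) and was at 0 in all 4 GFP libraries. AtsnoR9-2 (AT5G06565) at position 47 averaged 103 ± 89.4 RPM in GFP-FIB1 libraries, 94.9 ± 111 RPM in CFP-FIB2 libraries and 4.41 ± 3.13 RPM in GFP libraries (SD, n = 4 each). Between GFP-FIB1 and CFP-FIB2 the smallest p values among guides belonged to AtsnoR23-2, AtsnoR79a, AtsnoR8b (AT3G05355) and, for 5.8S, AtsnoR4b (AT1G06267), AtsnoR9-2 and At39BYb, with limma adjusted p = 1.00 for each. With the batch term, limma's adjusted p against GFP was, for GFP-FIB1 and then CFP-FIB2, 0.000739 and 0.00293 for AT2G35382, 0.000488 and 0.00133 for AT4G39363, and 0.000681 and 0.00165 for AT1G19376. It was 0.00366 and 0.00408 for U27-2, 0.00146 and 0.00293 for AtsnoR4a, and 0.00571 and 0.0204 for AtsnoR9-2. At39BYb passed in GFP-FIB1 and not in CFP-FIB2 (limma adjusted p = 0.0488 and 0.0938 with the batch term). The difference between the 2 fibrillarin groups did not pass. These p-values with the batch term rest on batches seen in the same data and may be too small.

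**Figure D2:**
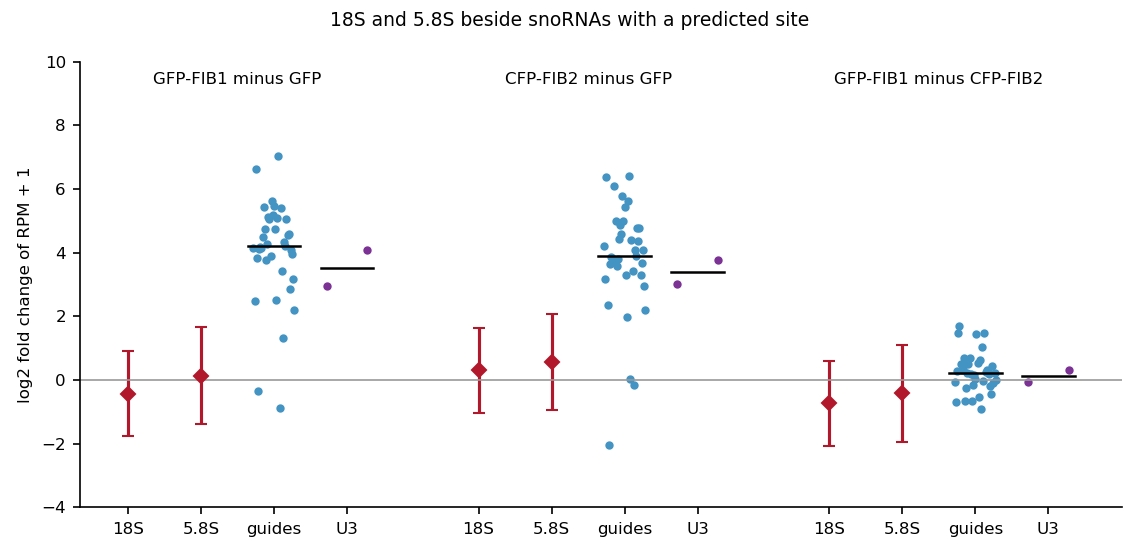
Log2 fold change of RPM + 1 in 3 comparisons for 18S and 5.8S (diamonds, bars the 95% interval), for 37 tested snoRNAs with a predicted site in 18S or 5.8S (points, line the median) and for the 2 U3 snoRNAs. Against GFP the rRNAs lie near 0, at -0.43 to 0.56, and the guide medians at 4.19 for GFP-FIB1 and 3.89 for CFP-FIB2; between GFP-FIB1 and CFP-FIB2 the guide median is 0.23 and the rRNAs lie at -0.73 and -0.42.

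As a share of all reads in peaks, the guides took 0.101, 4.17, 1.62 and 2.26% in GFP-FIB1 replicates 1 to 4, 0.110, 4.62, 1.33 and 0.415% in CFP-FIB2 replicates 1 to 4, and 0.00245, 0.0363, 0.0308 and 0.112% in GFP replicates 1 to 4. The batch A libraries were the lowest of the fibrillarin groups, and GFP replicate 4 lay just above both of them. The rRNA reads per guide read were 186, 3.83, 10.004 and 4.63 in GFP-FIB1 replicates 1 to 4, 186, 3.17, 9.94 and 53.6 in CFP-FIB2 replicates 1 to 4, and 9923, 552, 689 and 111 in GFP replicates 1 to 4. Both ratio and share gave an exact permutation p of 0.0571 (adjusted p = 0.0857) for each fibrillarin group against GFP. Within batches the exact p of the ratio was 0.389 for each, and that of the share 0.0556 in GFP-FIB1 and 0.222 in CFP-FIB2 against GFP. The ratio and the guide share were added after the data were seen.

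Along 18S, libraries of the same batch were more alike in where their reads lay than libraries of the same group. The 18S reads of libraries from the same batch shared a median of 58.7% of their distribution over positions (33.4 to 72.3%, 19 pairs), against 16.5% (1.64 to 25.5%, 32 pairs) between batch A and the others, and 48.1% (15 pairs) between batches B and C. Libraries of the same group from different batches shared a median of 19.8% (15 pairs), and libraries of different groups from the same batch 59.7% (16 pairs). The batches were seen in these same peak lists and the pairs share libraries, so the values are a description and no independent evidence of a batch. Peaks also differed in length, with a median 18S peak of 4 nt in each batch A library and 7 to 9 nt in the others. The part of peak length in these values was not tested. In 18S, 134 positions had a peak in all 8 libraries of batches B and C and in none of batch A, and 106 had a peak in all 4 of batch A and in none of the others.

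**Figure D3:**
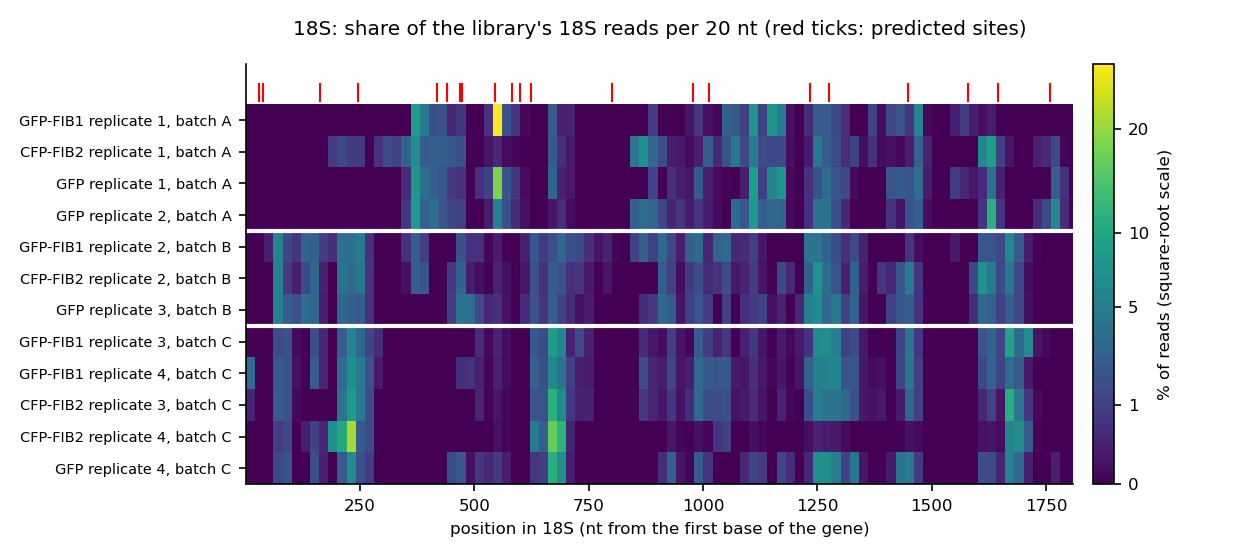
Share of each library's 18S reads per 20 nt, in percent on a square-root colour scale, along 18S from the first base; libraries run down the page by batch, white lines divide the batches and red ticks mark the 21 predicted sites. The 4 batch A libraries hold 16.9 to 17.8% in positions 340 to 452, which are at 0 in all of batch C, and 3 of them have no reads in positions 1 to 339, where batches B and C are covered.

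The window with most reads on average was positions 1244 to 1356 of 18S, at 13.3% of 18S reads against 6.25% for an even spread. It held 6.25, 10.2, 20.7 and 19.7% in GFP-FIB1 replicates 1 to 4, 9.45, 15.5, 17.5 and 0.544% in CFP-FIB2 replicates 1 to 4, and 8.24, 9.97, 17.8 and 24.2% in GFP replicates 1 to 4. It was covered in every library and lowest in CFP-FIB2 replicate 4. Positions 1583 to 1695, near the 3′ end, held 0.380, 13.7, 18.9 and 11.1% in GFP-FIB1 replicates 1 to 4, 16.1, 20.7, 16.7 and 11.2% in CFP-FIB2 replicates 1 to 4, and 4.59, 12.8, 11.4 and 12.1% in GFP replicates 1 to 4. The groups overlapped, and GFP-FIB1 replicate 1 and GFP replicate 1, both of batch A, were the lowest. Positions 227 to 339 held 0, 8.68, 9.15 and 12.03% in GFP-FIB1 replicates 1 to 4, 4.79, 8.21, 12.06 and 24% in CFP-FIB2 replicates 1 to 4, and 0, 0, 5.34 and 7.65% in GFP replicates 1 to 4. The 4 batch A libraries were the lowest, 3 of them at 0.

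Of 20 windows, 16 of equal length in 18S and 4 of 41 nt in 5.8S, none passed in any comparison. The smallest adjusted exact permutation p was 0.984 between GFP-FIB1 and GFP, 0.571 between CFP-FIB2 and GFP, and 0.967 between GFP-FIB1 and CFP-FIB2. An unadjusted p under 0.05 was reached by 0, 1 and 0 windows. That window, positions 453 to 565 of 18S, held 3.54, 4.12, 0.358 and 0.0523% in CFP-FIB2 replicates 1 to 4 and 21.5, 8.21, 11 and 5.61% in GFP replicates 1 to 4. It was lower in every CFP-FIB2 library than in every GFP library, with means of 2.02% ± 2.11 in CFP-FIB2 and 11.6% ± 6.95 in GFP libraries (SD, n = 4 each; exact permutation p = 0.0286, the smallest that 4 against 4 libraries can give, and adjusted p = 0.571). GFP-FIB1 libraries held 30.7, 3.00, 0.791 and 1.59% there, overlapping both. Batch A was apart from the other 8 libraries in 7 of the 16 windows of 18S, higher in 3 and lower in 4.

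The stretches of 18S shown above were picked as maxima of the mean profile, and their shares differed by library. In the order shown they held a mean of 5.15, 8.96, 3.73 and 7.47% of 18S reads, against 2.27% for an even spread. Within 20 nt of position 558, GFP-FIB1 replicate 1 held 30.2% of its 18S reads and GFP replicates 1 and 2 held 20.4 and 7.49%, while the other 9 libraries held 0.0535 to 1.29%. These 3 libraries are of batch A, whose other library, CFP-FIB2 replicate 1, held 0.431%. In the stretch at 652 to 692, GFP-FIB1 replicates 1 to 4 held 2.34, 3.65, 14.5 and 9.65%, CFP-FIB2 replicates 1 to 4 held 2.45, 3.87, 17.6 and 28.2%, and GFP replicates 1 to 4 held 3.09, 0.413, 3.5997 and 18.2%. All 5 libraries of batch C were above all of batches A and B. In the stretch at 215 to 255, CFP-FIB2 replicate 4 held 23.5%, GFP-FIB1 replicate 1 and GFP replicates 1 and 2 were at 0, and the other 8 libraries held 1.58 to 13.4%. Around position 1116 the batch A libraries held 8.71% in GFP-FIB1, 6.22% in CFP-FIB2 and 10.02 and 10.5% in GFP, against 0.0468 to 2.39% in the other 8 libraries. The strongest single 18S peak took 4.32 to 26.7% of a library's 18S reads, and in 5 libraries it began between positions 668 and 670.

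Some positions were covered in every library and some in none. In 18S, 154 positions had a peak in all 12 libraries, the longest run being 1236 to 1302, and 225 positions (12.4%) had none in any, the longest runs being 1488 to 1543, 18 to 59 and 803 to 842. No position had a peak in all 4 GFP-FIB1 or all 4 CFP-FIB2 libraries and in no GFP library, while 7 positions of 18S had one in all 4 GFP libraries and in no GFP-FIB1 library. In 5.8S, 52 of 164 positions had a peak in all 12 libraries, 90 to 131 being the longest run.

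5.8S was read mainly at its 5′ end and around position 90. Positions 1 to 41 held 0.663, 59.0, 44.1 and 57.0% of 5.8S reads in GFP-FIB1 replicates 1 to 4, 16.5, 67.1, 70.8 and 26.9% in CFP-FIB2 replicates 1 to 4, and 16.3, 5.07, 70.5 and 68.8% in GFP replicates 1 to 4. The 4 batch A libraries were the lowest of the 12. The stretch at 70 to 110 held 56.9, 25.5, 47.1 and 20.9% in GFP-FIB1 replicates 1 to 4, 59.4, 17.3, 14.0 and 68.9% in CFP-FIB2 replicates 1 to 4, and 51.7, 74.9, 16.2 and 20.3% in GFP replicates 1 to 4. It was high in batch A and in CFP-FIB2 replicate 4 and GFP-FIB1 replicate 3, and the groups overlapped in both places.

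**Figure D4:**
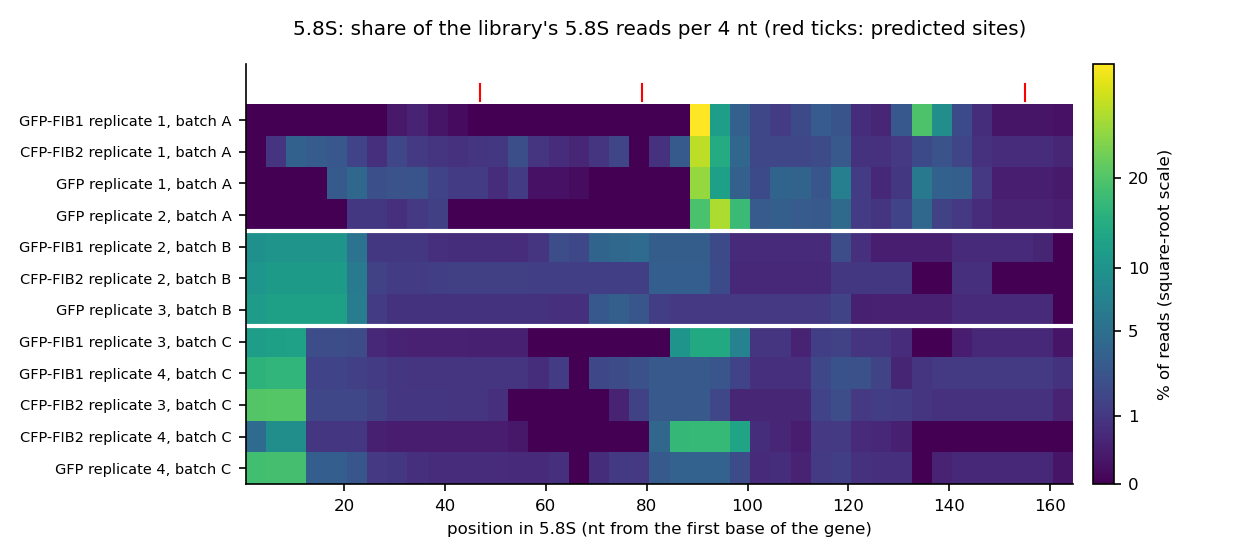
Share of each library's 5.8S reads per 4 nt, in percent on a square-root colour scale, along 5.8S from the first base; libraries run down the page by batch and red ticks mark the 3 predicted sites. Batch A and CFP-FIB2 replicate 4 are bright around position 90. Batches B and C are bright at the 5′ end, where positions 1 to 41 hold 26.9 to 70.8% in these 8 libraries and 0.663 to 16.5% in batch A.

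The predicted sites numbered 21 in 18S and 3 in 5.8S. Positions within 15 nt of a site make up 31.6% of 18S. They held 43.3, 32.7, 34.9 and 42.6% of 18S reads in GFP-FIB1 replicates 1 to 4, 30.3, 38.0, 30.2 and 28.1% in CFP-FIB2 replicates 1 to 4, and 42.5, 42.1, 39.3 and 38.6% in GFP replicates 1 to 4. CFP-FIB2 libraries lay below every GFP library, with means of 31.6% ± 4.36 in CFP-FIB2 and 40.6% ± 1.98 in GFP libraries (SD, n = 4 each). The difference of -8.96 points did not pass after adjustment (exact permutation p = 0.0286, adjusted p = 0.0857 over 3 comparisons). Within batches it was -7.56 (exact p = 0.0556, the smallest that design can give). Without the site of the guide AT4G02555 the difference was -2.51 (exact p = 0.486), and without batch A it was -6.80 (exact p = 0.200, in a design that cannot go below 0.1). GFP-FIB1 averaged 38.4% ± 5.39 (SD, n = 4), -2.22 points from GFP (exact p = 0.514, adjusted p = 0.514) and 6.74 points from CFP-FIB2 (exact p = 0.143, adjusted p = 0.214).

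Single sites differed widely in reads. A peak lay within 15 nt in all 12 libraries at 8 of the 21 sites of 18S and in no library at 1, position 38. Around the site of AT4G02555, which lies in the first stretch shown, the share was 28.4, 0.157, 0.287 and 0.238% in GFP-FIB1 replicates 1 to 4, 0.411, 0.277, 0.0939 and 0.0465% in CFP-FIB2 replicates 1 to 4, and 18.8, 5.88, 0.805 and 1.14% in GFP replicates 1 to 4. It was lower in every CFP-FIB2 library than in every GFP library, as was position 582, and over the 24 sites the smallest adjusted p was 0.343. Around position 1235, whose guides include AtsnoR14-2 (AT1G06547), the share was 1.87, 6.07, 3.63 and 5.28% in GFP-FIB1 replicates 1 to 4, 4.17, 5.51, 3.86 and 0.162% in CFP-FIB2 replicates 1 to 4, and 1.67, 3.67, 8.51 and 3.38% in GFP replicates 1 to 4, with overlap. Around position 418, whose guide AT4G39363 was far above GFP, there was signal only in batch A, at 3.03% in GFP-FIB1, 4.44% in CFP-FIB2 and 4.26 and 4.91% in GFP, and none in the other 8 libraries. AT4G02555 itself averaged 215 ± 152 RPM in GFP-FIB1 libraries, 115 ± 95.6 RPM in CFP-FIB2 libraries and 3.58 ± 5.71 RPM in GFP libraries (SD, n = 4 each). Around position 440, the site of AT2G35382, 1 GFP-FIB1 library and 2 CFP-FIB2 libraries had reads, at 1.39% in GFP-FIB1 replicate 1 and 2.57 and 0.136% in CFP-FIB2 replicates 1 and 2, against 1.83, 1.82, 0.156 and 0.248% in GFP replicates 1 to 4. Around position 47 of 5.8S the share of 5.8S reads was 0.598, 6.05, 1.92 and 6.61% in GFP-FIB1 replicates 1 to 4, 8.24, 10.2, 4.62 and 1.31% in CFP-FIB2 replicates 1 to 4, and 8.94, 2.59, 6.17 and 4.85% in GFP replicates 1 to 4. The groups overlapped at both sites.

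**Figure D5:**
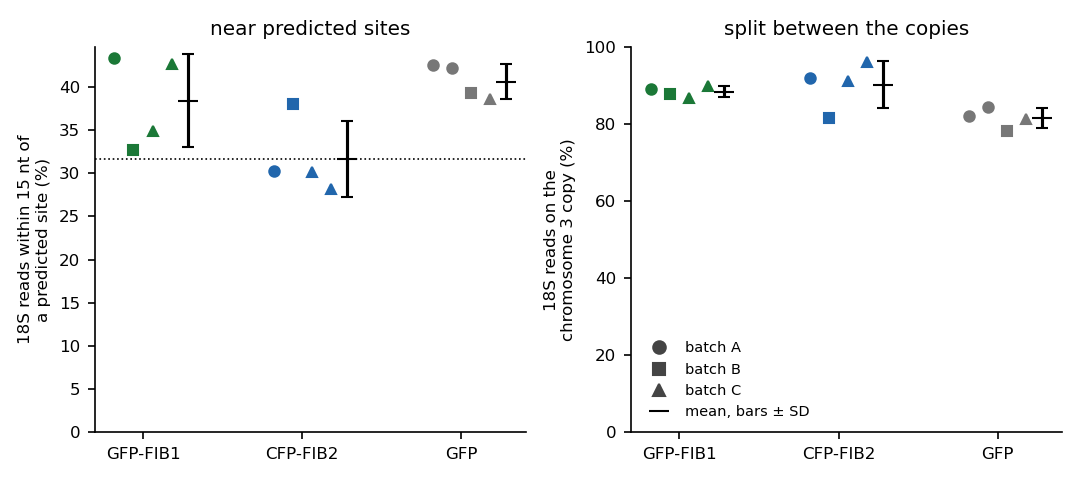
Left, share of 18S reads within 15 nt of a predicted site, in percent, with a dotted line at the 31.6% of positions that lie so close; right, share of 18S reads on the chromosome 3 copy, in percent. Points are libraries, shape gives the batch, bars the mean ± SD; CFP-FIB2 lies below GFP on the left and GFP-FIB1 above GFP on the right, without overlap.

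The split between the copies was unequal. The 2 copies of 18S differ at T489C and T1327C (base on chromosome 2, position, base on chromosome 3), and those of 5.8S are identical, so the assignment of nearly all reads to a copy rests on the authors' mapping and is uncertain. The chromosome 3 copy took 89.0, 87.8, 86.7 and 89.9% of 18S reads in GFP-FIB1 replicates 1 to 4, 91.9, 81.6, 91.1 and 96.1% in CFP-FIB2 replicates 1 to 4, and 82.2, 84.5, 78.1 and 81.4% in GFP replicates 1 to 4. GFP-FIB1 lay above every GFP library, with means of 88.4% ± 1.44 in GFP-FIB1 and 81.6% ± 2.63 in GFP libraries (SD, n = 4 each). The difference was 6.80 points (exact permutation p = 0.0286, adjusted p = 0.0857; within batches 7.41, exact p = 0.0556). CFP-FIB2 averaged 90.2% ± 6.13 (SD, n = 4), 8.63 points above GFP with overlap (exact p = 0.0857, adjusted p = 0.129), and without CFP-FIB2 replicate 2 it was 11.49 points above (exact p = 0.0286). Without that library GFP-FIB1 was -4.69 points from CFP-FIB2 (exact p = 0.0286), against -1.83 with it (exact p = 0.571). For 5.8S the chromosome 3 share was 95.9% ± 1.37 in GFP-FIB1 libraries, 95.7% ± 1.72 in CFP-FIB2 libraries and 92.4% ± 2.95 in GFP libraries (SD, n = 4 each; exact permutation p = 0.0571 for GFP-FIB1 against GFP and 0.0857 for CFP-FIB2 against GFP). The first peak on the chromosome 2 copy of 18S began at position 494 to 549 in all 12 libraries, and on the chromosome 3 copy at position 1 to 362. Only a read over a differing base can be told apart, and no chromosome 2 peak covered position 489. The chromosome 2 reads counted near 489 lay in peaks beside it, so a share taken there cannot check the split. Within 25 nt of the 2 differing bases the chromosome 3 share was 99.2, 84.3, 82.1 and 94.5% in GFP-FIB1 replicates 1 to 4, 100, 98.9, 94.2 and 0% in CFP-FIB2 replicates 1 to 4, and 99.0, 98.9, 83.1 and 89.8% in GFP replicates 1 to 4. The groups overlapped there, and 2 GFP-FIB1 libraries lay below 3 of the GFP libraries. In CFP-FIB2 replicate 4 that share rests on 304 reads, all on chromosome 2, while elsewhere in 18S its chromosome 3 share was 96.1%. In the rest of 18S, where the copies are identical, it was 86.8 to 89.7% in GFP-FIB1 libraries and 77.4 to 84.3% in GFP libraries. This measure was added after the data were seen.

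Other RNAs of rRNA processing gave the scale. U3 snoRNA, which pairs with the precursor for its first cleavages, is given by 2 genes. AT5G54075 had 67.9, 1470, 1691 and 1931 RPM in GFP-FIB1 replicates 1 to 4, 82.2, 2361, 558 and 1307 RPM in CFP-FIB2 replicates 1 to 4, and 5.24, 30.4, 126 and 160 RPM in GFP replicates 1 to 4, and AT5G53902 averaged 1737 ± 1727 RPM in GFP-FIB1 libraries, 2024 ± 2919 RPM in CFP-FIB2 libraries and 108 ± 78.9 RPM in GFP libraries (SD, n = 4 each). For both genes the fibrillarin libraries of batch A lay below the highest GFP library. Neither passed (limma adjusted p = 1.00), and with the batch term AT5G54075 passed in GFP-FIB1 against GFP (limma adjusted p = 0.0206). Of 5 chloroplast rRNA genes, which lie outside the nucleolus, 4 were tested and none passed in any comparison in either fit. The 16S gene ATCG00920 averaged 34953 ± 7072 RPM in GFP-FIB1 libraries, 29610 ± 4456 RPM in CFP-FIB2 libraries and 34610 ± 14961 RPM in GFP libraries (SD, n = 4 each). The 23S gene ATCG00950 had a log2 fold change of 0.29 in GFP-FIB1 against GFP and 0.33 in GFP-FIB1 against CFP-FIB2. In CFP-FIB2 against GFP the log2 fold change of ATCG00950 was -0.04 and that of the 4.5S gene ATCG00960 was -0.25. That of the other 23S gene, ATCG01180, was -0.95, at a level near the floor. It averaged 1.12 ± 0.456 RPM in CFP-FIB2 and 3.28 ± 1.51 RPM in GFP libraries (SD, n = 4 each). Mitochondrial and nuclear 5S rRNA genes were not analysed here. At the tagged genes, FIB1 (AT5G52470) had 65.4 to 664 RPM in GFP-FIB1 libraries, 79.3 to 319 RPM in CFP-FIB2 libraries and 7.27 to 37.3 RPM in GFP libraries, and FIB2 (AT4G25630) 0 to 73.5, 0.798 to 50.4 and 1.54 to 10.1 RPM; each gene also encodes a box C/D snoRNA in an intron.

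Across the 12 libraries, the 5 genes with log2(RPM + 1) most like 18S among 692 genes of 50 RPM or more were a tRNA-Gln gene (AT1G21800, Pearson r = 0.89), AT2G05580 (r = 0.86), a tRNA-His gene (AT3G06665, r = 0.84), AT3G06365, which follows 5.8S on chromosome 3 (r = 0.78), and the seed storage protein gene CRU3 (r = 0.77), while 5.8S had r = 0.72. These points share library, depth and batch. For 18S, CFP-FIB2 replicate 4 was the highest library at 667069 RPM, against 88614 to 234196 RPM in the other 11. As a share of reads in peaks it was 18.8% there, below the 21.9% of GFP replicate 1, so that order depends on the total and the scaling behind RPM. Every RPM value of that library carries the same factor, those of guides and U3 included. The guides took 0.415% of its reads in peaks and 1.33% in CFP-FIB2 replicate 3, while AtsnoR4a had 2353 and 1613 RPM.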

How the data were processed

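Each of the 12 libraries is represented by a deposited list of peaks: position, strand, a name joining a locus, a peak number and a whole number of 3 or more, and a p-value. The authors' peak lists give a p-value per peak, up to 0.05, in each file as deposited; how it was computed is not given in the sources used here. The number in the name is read here as the reads in the peak; the files do not document it, and it rose as the p-value fell (Spearman -0.973 to -0.995 per library). Not given in the sources used here are the aligner, peak caller, build and treatment of reads with several matches, and the submitters' processing notes name DESeq2. The build was checked: 99.96% of 624188 gene-named peaks lay inside their gene on the TAIR10.1 annotation. Reads that match both copies of an rRNA could be placed on either.

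Of 1037099 listed peaks, 4107 (0.396%) that overlapped a peak with more reads on the same strand were removed. A peak belonged to an rRNA gene when at least 50% of it lay inside on the plus strand; copies were summed by position, a peak's reads spread evenly over it. The depth is known only as reads in peaks, and intervals and tests cover the spread between libraries. Shares were compared by exact permutation, 2-sided, with 70 ways to split the 8 libraries and so no p below 0.0286, adjusted by Benjamini-Hochberg within families. Within-batch values permute within batches (18 orders against GFP, 24 for GFP-FIB1 against CFP-FIB2). All genes were fitted together with limma 3.58.1 with a mean-variance trend in R 4.3.3 on log2(RPM + 1). Scaling was by the trimmed mean of M values (30% of log ratios and 5% of levels trimmed). The fit kept 19537 of 35515 features with 10 reads at median depth in 4 libraries and 15 reads in all. It was also run on simulated data without batches, which does not show how it performs on these libraries. Permutation tests used Python 3.11.15 and NumPy 2.4.6. A base is a predicted site when 10 or more Watson-Crick pairs adjoin a CTGA of an annotated snoRNA gene.

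Members and lists were chosen with earlier results of these data known. The genes named are all 4 members; the 3 windows of 18S and 1 of 5.8S with the highest mean share and any window that separated a fibrillarin group from GFP; up to 4 stretches of 18S and 1 of 5.8S with the highest mean; 5 genes most like 18S; and up to 3 genes per list with the smallest p. Single sites, and AT1G06547, were named after their values were seen. Alternatives covered membership, overlap, peak threshold, denominators, scaling, pseudocount, filter, batch, replicate numbers, window and site definitions, and each replicate left out. Deviations from the group means of same-numbered libraries correlated at 0.350 to 0.557 between GFP-FIB1 and CFP-FIB2. Against GFP they correlated at 0.470 to 0.589 for numbers 1 and 4 and at -0.205 to 0.265 for numbers 2 and 3. Same numbers shared a batch between GFP-FIB1 and CFP-FIB2, and against GFP only for numbers 1 and 4. Pairing by number could therefore not be told apart from batch.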

Additional observations from a re-analysis of the deposited data

Results flagged for a closer look

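In 81 groups of 4 libraries, taken over 27 measures, a library stood apart from the other 3 of its group in 7 cases, where chance gives about 1 in 20 groups; 6 of the 7 are batch A libraries, and all are windows of 18S. In positions 453 to 565, GFP-FIB1 replicate 1 held 30.7% of 18S reads and the other GFP-FIB1 libraries 0.791 to 3.00%. In positions 792 to 904, CFP-FIB2 replicate 1 held 15.4% and the others of its group 0 to 1.13%, and GFP replicate 2 held 9.89% and the others of its group 0 to 1.35%. In positions 1018 to 1130, CFP-FIB2 replicate 1 held 14.2% and the others 1.87 to 3.92%. In positions 1470 to 1582, GFP replicate 1 held 3.43% and the others 0.303 to 0.484%. In positions 1583 to 1695, GFP replicate 1 held 4.59% and the others 11.4 to 12.8%. In positions 1696 to 1808, GFP-FIB1 replicate 3, of batch C, held 6.74% and the others 0 to 0.245%. The first 6 are batch A libraries. For the GFP libraries among them, the other batch A library of the group lay with the rest. GFP replicate 1 held 1.13% in positions 792 to 904. GFP replicate 2 held 0.484% in positions 1470 to 1582 and 12.8% in positions 1583 to 1695. The part of the batch in these cases was not tested.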

How the results depend on the processing

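Over 41 results, 583 of 660 alternative values kept their direction and side of the threshold or, for counts, their size. The size of a difference was not weighed and most main results did not pass, so this number does not measure stability. The direction of the 5.8S share in CFP-FIB2 against GFP turned to 0.902 points with peaks wholly inside the gene, 0.0457 within batches, 0.00331 without batch A and 0.0990 without snoRNA reads in the total. Peaks wholly inside the gene also moved the 5.8S share in GFP-FIB1 against GFP to 1.06 points and the 5.8S part of both rRNAs to 10.7 for GFP-FIB1 and 7.05 for CFP-FIB2 against GFP. That setting drops only 2 kept peaks, which cross a gene bound. With only peaks named for the 4 genes, the 5.8S share in GFP-FIB1 against GFP was -0.108, and the 5.8S part of both rRNAs -0.283 for GFP-FIB1 and -0.692 for CFP-FIB2 against GFP. The 18S covered length in CFP-FIB2 against GFP was 5 nt within batches. Scaled by total reads, log2 fold changes were -0.19 for 18S in CFP-FIB2 against GFP and 0.041 for 5.8S in GFP-FIB1 against CFP-FIB2; that scaling moved the median of all genes to -0.10 and 0.17 in these comparisons.

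The share near sites in CFP-FIB2 against GFP no longer passed unadjusted at -1.997 within 5 nt, -7.16 within 30 nt, -13.1 with 12 pairs and -2.51 without the site of AT4G02555. It was -7.56 within batches and -6.80 without batch A, where p cannot go below 0.0556 and 0.1, so these designs say nothing about stability. In GFP-FIB1 against GFP it was 0.463 within 5 nt and 0.984 within 30 nt, and in GFP-FIB1 against CFP-FIB2 -0.331 without the site of AT4G02555. The chromosome 3 share in GFP-FIB1 against GFP was 7.41 within batches and 8.35 without batch A, both at the smallest p those designs allow (exact p = 0.0556 and 0.1), which says nothing about stability either. With batches as a term, 0.543% of genes tested were called higher and 0.0717% lower in GFP-FIB1 against GFP, and 0.496% and 0.00512% in CFP-FIB2 against GFP, with 24 and 21 guides among them. Without batch A, 0.0213% and 0.00533% were called, all higher, with 1 and 0 guides among them. The causes were not tested beyond what these settings change.

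With the replicate number as a block, 0.624% of genes tested were called in GFP-FIB1 against GFP and 0.578% in CFP-FIB2 against GFP, all higher, with 28 and 26 guides among them. Against GFP the numbers 2 and 3 join libraries of different batches, and not every library correlated best with its own number. The share near sites in CFP-FIB2 against GFP was -8.96 (exact sign-flip p = 0.125) and the chromosome 3 share in GFP-FIB1 against GFP 6.80 (exact sign-flip p = 0.125), the smallest p that 4 numbers allow. Among the other results the block changed no call.

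Leaving out 1 library gave these ranges, for GFP-FIB1 against GFP, CFP-FIB2 against GFP and GFP-FIB1 against CFP-FIB2. The 18S share was -6.02 to -2.21, -3.58 to 0.233 and -3.80 to -0.905 points, and the 5.8S share -0.487 to 0.584, -0.643 to 0.428 and -0.178 to 0.451. The 5.8S part of both was 3.02 to 8.12, -0.654 to 4.44 and 2.07 to 5.95. Covered 18S was -31.2 to 70.5, -58.2 to 40.5 and -16.8 to 92.8 nt. The share near sites was -3.86 to -0.306, -11.1 to -7.79 and 5.096 to 8.87, and the chromosome 3 share 5.65 to 7.76, 6.65 to 11.49 and -4.69 to 0.147. The log2 fold change of 18S was -0.63 to -0.29, -0.27 to 0.70 and -1.19 to -0.21, and of 5.8S -0.12 to 0.34, 0.14 to 0.87 and -0.79 to -0.06. Genes called higher were 0 to 0.0207%, 0 to 0.00524% and 0% of those tested, and lower 0% in each; guides 0 to 1, 0 and 0, windows 0 in each.

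Depth is known only as reads in peaks and reads below the peak threshold are not in these lists.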
